A study of Mus musculus with 96 samples.

Results

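Transcript levels of 10 genes of the Hippo pathway were examined in 96 single daughter cells of 48 divisions of cultured horizontal basal cells (HBCs), the reserve stem cells of the mouse olfactory epithelium (OE). The genes were Yap1 and Wwtr1 (the gene of TAZ), Tead1, Tead3, Tead4, Lats1, Lats2, Amotl1, Amotl2 and Vgll4. They were taken by symbol from the 55487 genes of the deposited count matrix, and all 10 passed a low-count filter (a count of 10 reached in 10% of cells or more), as 14463 genes did. All cells were wild type and came from OE of adult mice, 6 to 8 weeks old, that had received methimazole, a drug that strips the epithelium down to its basal layer, 2 days before dissection. The HBCs were grown ex vivo with a change of coating from Tropoelastin to Fibronectin, both daughters of a division were picked by hand with their pairing noted, and polyadenylated RNA of each was sequenced with ERCC spike-in RNA. There was 1 condition and no untreated group. No label names the animal or culture a cell came from, so the 96 cells were treated as 1 sample, and the values below are descriptions without a test. Culture limits the cells as a model of HBCs in the tissue.

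The Hippo pathway is a kinase relay that controls growth and regeneration of epithelia. When it is active, LATS kinases phosphorylate the coactivators YAP and TAZ, which are then held in the cytoplasm or degraded. When it is inactive, both enter the nucleus and switch on target genes through TEAD transcription factors. Much of this control acts on proteins, which were not measured here.

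Each cell had between 29454000 and 44849000 counts in genes (median 36153000) and between 11403 and 14632 genes with a count. ERCC RNA took 1.06% to 5.75% of counts. Of the 5 HBC markers, Trp63, Krt5, Krt14 and Itga6 had a count in all 96 cells and Icam1 in 86. The summed level of all 5 was 155 to 12675 TPM, the abundance unit scaled per transcript length and library total. Globose basal cell markers were at 0 in 91 cells, glial markers in 90, sustentacular markers in 88, fibroblast markers in 74, ciliated cell markers in 72 and neuron markers in 61. Neuron markers summed to up to 72.5 TPM and ciliated cell markers to up to 22.4 TPM. Of the endothelial markers Pecam1 had a count in 92 cells, but 10 or more counts in only 5. Kit, Cyp1a2, Dcn, Cdh5 and Sox10 were at 0 in every cell. The immune markers summed to 0 to 358 TPM and to 1 TPM or more in 50 cells. Of these markers Cd68 had a count in 74 cells, but Ptprc in only 7, Lyz2 in 3 and Csf1r in 2. Their part in the results was not tested. The cells fall into 12 sets of 8 by the names of their deposited files, and the median TPM of Yap1 in a set ranged from 4.84 to 24.7.

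Yap1 and Wwtr1 are the coactivators that the results turn on, so the 250 bases before their RefSeq start sites (build GRCm38.p6) are shown, to place the letters of the core TEAD motif, GGAATG, in them. Each is written 5′ to 3′ on the strand of its gene in lower case, with the motif in capitals.
Yap1 (chr9:8004597-8004846, minus strand): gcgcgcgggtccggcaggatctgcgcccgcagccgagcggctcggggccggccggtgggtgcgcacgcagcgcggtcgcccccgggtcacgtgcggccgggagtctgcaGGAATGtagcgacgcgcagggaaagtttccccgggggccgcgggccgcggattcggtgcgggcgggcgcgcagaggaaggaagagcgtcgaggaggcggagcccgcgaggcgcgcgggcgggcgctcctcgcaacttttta
Wwtr1 (chr3:57575911-57576160, minus strand): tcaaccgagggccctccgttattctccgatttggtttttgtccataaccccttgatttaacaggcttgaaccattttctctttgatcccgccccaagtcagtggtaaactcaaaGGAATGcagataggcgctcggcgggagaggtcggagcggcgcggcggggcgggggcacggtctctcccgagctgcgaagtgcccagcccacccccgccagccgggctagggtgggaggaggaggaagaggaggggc
The motif begins 141 bases before the start of Yap1 and 136 bases before that of Wwtr1. Searched on both strands, it was found before 5 of the 8 genes that matched the RefSeq table (Yap1, Wwtr1, Tead3, Amotl2 and Vgll4), and not in these windows of Lats1, Lats2 and Amotl1. Of all genes in the table, 14.4% had it in such a window. A match of these letters is not evidence of a bound site, and no binding was measured.

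Yap1 and Wwtr1 encode the pathway's paralogous effectors. Yap1 (ENSMUSG00000053110, chromosome 9, 7931999 to 8004596, minus strand, GRCm38) had a count in 95 of 96 cells. Its counts ran from 0 to 4514 with a median of 1178, and its level from 0 to 70.04 TPM with a median of 13.3. The middle part of the cells, between the quartiles, lay between 5.45 and 22.7 TPM. Wwtr1 (ENSMUSG00000027803, chromosome 3, 57455649 to 57575910, minus strand) also had a count in 95 cells, from 0 to 7262 with a median of 2006, and a median level of 19.8 TPM. So both coactivator transcripts were present in almost every daughter cell, at levels that spread widely.

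No cell lacked both. In the cell with no Yap1 count (daughter 1 of pair 3), Wwtr1 had 16 counts, and in the cell with no Wwtr1 count (daughter 1 of pair 7), Yap1 had 2295 counts. Wwtr1 was the more abundant of both per length in 57 cells (59.4%) and Yap1 in 39 (40.6%). Their summed level ran from 0.138 to 96.4 TPM around a median of 32.8, and its lowest value was in daughter 1 of pair 3. The leading gene differed between sisters in 21 of 48 pairs (43.75%, exact 95% interval 29.5 to 58.8). Intervals here and below are Clopper-Pearson, for numbers of cells or pairs taken as separate, and do not cover differences between animals or cultures.

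TEAD proteins bind DNA for YAP and TAZ. Tead1 (ENSMUSG00000055320, chromosome 7, 112679318 to 112906807) was read in all 96 cells, its counts spanning 397 to 10993 (median 5233), and had a median level of 27.5 TPM. Tead4 (ENSMUSG00000030353, chromosome 6, 128224288 to 128300823) had counts in 89 cells, a median of 852 and a highest of 6455, with a median level of 15.3 TPM. Tead3 (ENSMUSG00000002249, chromosome 17, 28331671 to 28350817) was read in 65 cells only, with a median of 39 counts and 0.595 TPM, although it reached 22.5 TPM in its highest cell. Tead1 led the 4 TEAD genes in 67 cells, Tead4 in 19, Tead2 in 9 and Tead3 in 1. Thus the TEAD pool of most cells was led by Tead1, while 23 of 48 pairs (47.9%) had a different leading TEAD gene in each sister.

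LATS kinases restrain YAP and TAZ. Lats1 (ENSMUSG00000040021, chromosome 10, 7681214 to 7716460) was read in every cell, its counts spanning 7 to 6540 (median 1231), and had a median level of 8.03 TPM. Lats2 (ENSMUSG00000021959, chromosome 14, 57689662 to 57758388) had counts in 84 cells, with a median of 481.5, a highest of 3340 and a median level of 4.24 TPM. Lats1 led in 58 cells and Lats2 in 38.

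Angiomotins hold YAP at junctions and the cytoskeleton. Amotl1 (ENSMUSG00000013076, chromosome 9, 14541966 to 14645056) was the most evenly read of the 10 genes. It had at least 1302 counts in every cell, a median of 9210 and a median level of 52.2 TPM. Amotl2 (ENSMUSG00000032531, chromosome 9, 102716672 to 102733418), itself a known YAP target, was read in 83 cells and ran from 0 to 7092 counts, with a median of 328 and 3.84 TPM. Amotl1 led the angiomotin genes in 89 cells, Amotl2 in 7 and Amot in 0. Vgll4 encodes a competitor of YAP for TEAD binding. Vgll4 (ENSMUSG00000030315, chromosome 6, 114860628 to 114969994) had 9 to 11853 counts with a median of 2373. With 70.1 TPM it had the highest median level of the 10 genes, and its highest cell reached 306 TPM.

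**Figure D1:**
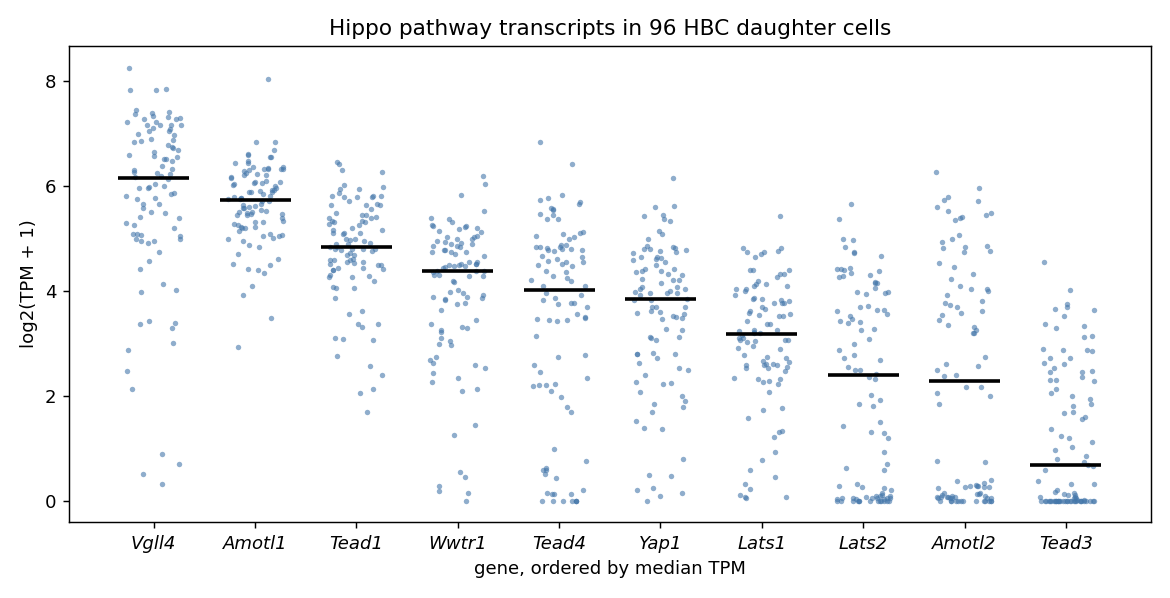
Level of each Hippo pathway gene on the log2(TPM + 1) scale (y axis) in 96 HBC daughter cells, with genes ordered by their median TPM (x axis). Each point is a cell and the black bar is the median; the medians fall from 70.1 TPM for Vgll4 to 0.595 TPM for Tead3, and Lats2, Amotl2 and Tead3 have many cells at or near 0.

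By median TPM the order was Vgll4, Amotl1, Tead1, Wwtr1, Tead4, Yap1, Lats1, Lats2, Amotl2 and Tead3. Neighbours were told apart by the share of cells in which the upper gene was the higher. Amotl1 exceeded Tead1 in 75 of 96 cells (78.1%, 68.5 to 85.9), Tead1 exceeded Wwtr1 in 65 and Yap1 exceeded Lats1 in 64. Amotl2 exceeded Tead3 in 59 cells (61.5%, 50.97 to 71.2). For the other neighbours the interval held an even split. Vgll4 exceeded Amotl1 in 58 cells (60.4%, 49.9 to 70.3), Wwtr1 exceeded Tead4 in 56 and Tead4 exceeded Yap1 in 51. Lats1 exceeded Lats2 in 58 cells, and Lats2 exceeded Amotl2 in 40. These intervals take cells as separate, although sisters share a mother cell.

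Antisense or overlapping genes were annotated within Yap1, Wwtr1, Tead1, Tead4, Lats2 and Amotl1. The library method does not keep the strand, so their reads cannot be told apart from reads of the gene itself. None of these overlapping genes had a median count above 5.

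The study paired the daughters to examine HBCs that divide asymmetrically, and used a ratio of 1.5 for transcripts of a few genes. Here the ratio was taken for each Hippo gene as the ratio of the higher to the lower sister on ERCC-normalized counts plus 1. Yap1 reached it in 40 of 48 pairs (83.3%, 69.8 to 92.5), with a median ratio of 2.75 and 9 pairs at or over 10-fold. Wwtr1 reached it in 26 pairs (54.2%, 39.2 to 68.6) with a median ratio of 1.62 and 5 pairs at or over 10-fold. Over all genes that passed the filter, 65.2% of the gene and pair values reached 1.5. Over the 10 Hippo genes, 350 of 480 values did (72.9%), with a median ratio of 2.71 against 2.204 for all genes.

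**Figure D2:**
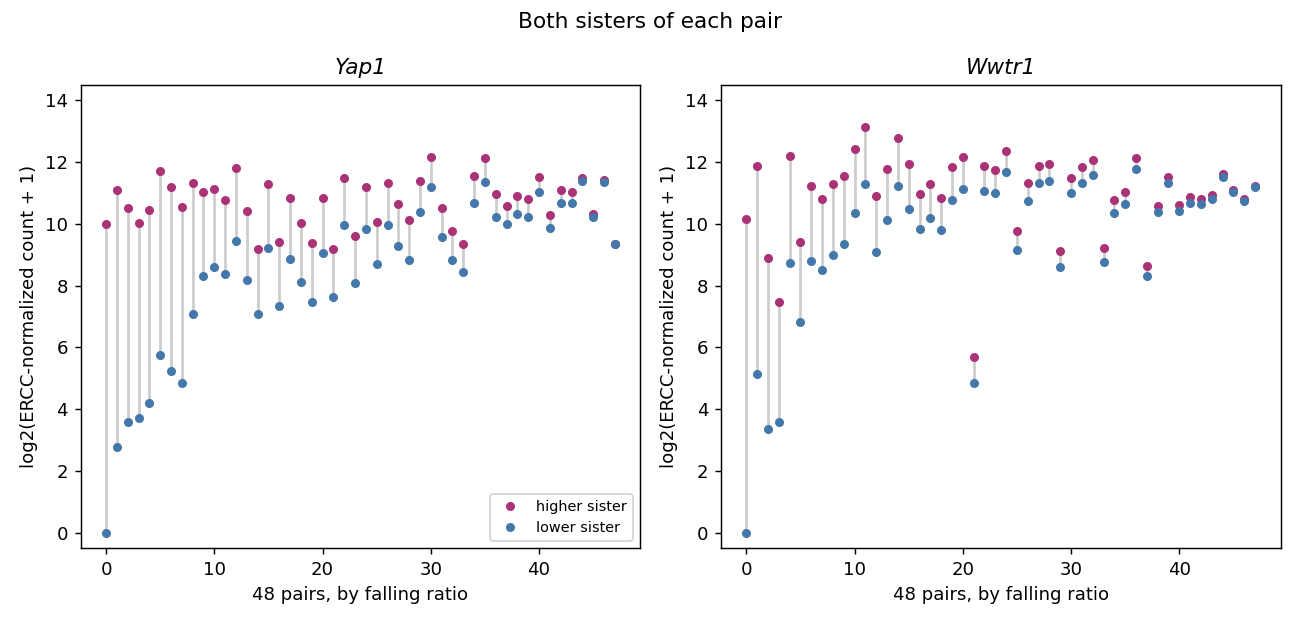
ERCC-normalized counts of Yap1 (left) and Wwtr1 (right) on the log2(count + 1) scale (y axis) in both sisters of each of 48 pairs, ordered along the x axis by falling ratio. Purple points are the higher sister, blue points the lower sister, and grey lines join a pair; Yap1 reaches the 1.5-fold ratio in 40 pairs and Wwtr1 in 26.

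Yap1 differed most in 3 pairs. In pair 3 the sisters had 0 and 1180 counts, a difference of at least 492-fold when the 0 is set to 3 counts. Such bounds, here and below, hold for counts and not for molecules, because PCR reads are not independent molecules. The ERCC RNAs within a factor of 2 of the median TPM of Yap1 had a count in 77 to 85 cells. Pair 41 had 2835 and 7 counts (324-fold), and pair 31 had 16 and 1677 counts (123-fold). In pairs 3 and 41 Wwtr1 was lower in the same sister as Yap1, with 16 against 202 counts and 620 against 3216 counts. In pair 31 Wwtr1 was close in both sisters, with 1913 and 1993 counts. For Wwtr1 the widest gap was in pair 7, with 0 and 1086 counts, at least 490-fold. The sum of both coactivators reached 1.5 in 29 pairs (60.4%) with a median ratio of 1.82, between the values of Wwtr1 and of Yap1 alone.

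Among the TEAD genes, Tead1 reached 1.5 in 31 pairs (64.6%, 49.5 to 77.8), Tead4 in 39 (81.25%, 67.4 to 91.1) and Tead3 in 41 (85.4%, 72.2 to 93.9). The median ratio was 1.88 for Tead1 and 5.05 for Tead4. For Tead3, 1 sister was at 0 in 21 pairs and both were at 0 in 5, so in those pairs its ratio does not compare 2 measured counts. The widest Tead1 gap was 13.2-fold (pair 47, 4791 and 688 counts). In pair 4 Tead4 had 2210 and 0 counts, at least 1072-fold, and in pair 28 Tead3 had 0 and 562 counts, at least 221-fold. The summed TEAD level reached 1.5 in 27 pairs.

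Lats1 reached 1.5 in 35 pairs (72.9%, 58.2 to 84.7) and Lats2 in 40 (83.3%), and 12 pairs had a single sister without a Lats2 count. The widest gaps were 3562 against 11 counts of Lats1 in pair 30 (335-fold) and 3340 against 0 counts of Lats2 in pair 37 (at least 1208-fold). Amotl1 was the most alike between sisters. It reached 1.5 in 21 pairs (43.75%, 29.5 to 58.8), with a median ratio of 1.34, no pair at or over 10-fold and a widest gap of 9.17-fold in pair 12. Amotl2 reached it in 41 pairs (85.4%) and was at 0 in a single sister of 9 pairs, such as pair 45 with 0 and 1271 counts (at least 470-fold). Vgll4 reached it in 36 pairs (75%, 60.4 to 86.4), and its widest gap was 198-fold in pair 15, with 1824 and 9 counts.

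**Figure D3:**
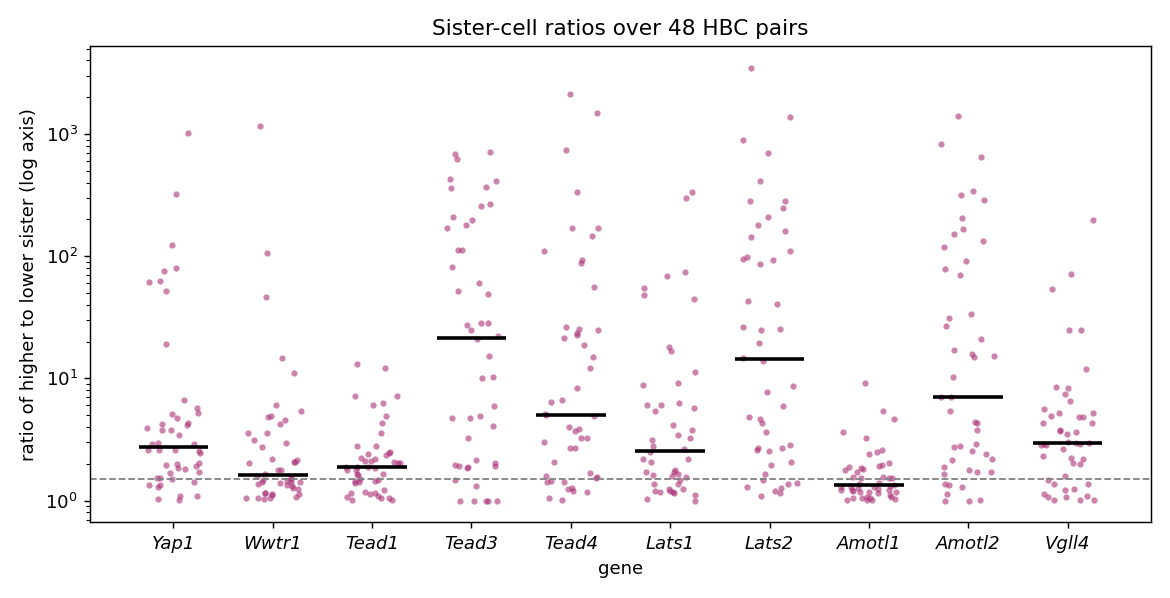
Ratio of the higher to the lower sister on ERCC-normalized counts plus 1 (y axis, log scale) for each Hippo pathway gene (x axis). Each point is 1 of 48 pairs, the black bar is the median and the dashed line marks 1.5; the medians run from 1.34 for Amotl1 to 21.5 for Tead3, and where a sister is at 0 the height of the point depends on the added 1.

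Reaching 1.5 in at least 24 of 48 pairs was common, being seen for 79.5% of all genes and for 9 of the 10 Hippo genes (all but Amotl1). Each pair had between 4 and 10 of the Hippo genes at or over 1.5, and 4 pairs had all 10. In pair 4 the first daughter was the higher in Lats1 (1659 against 31 counts), Lats2 (2053 against 33), Tead4 (2210 against 0) and Amotl1 (17769 against 4815). Yap1 and Tead1 were also higher in that daughter. In the same pair Vgll4 was the higher in the second daughter, with 3749 against 35 counts. So were Wwtr1 (3799 against 1215), Tead3 (402 against 0) and Amotl2 (13 against 5). Gene counts per ERCC count differed 1.71-fold between these sisters, with the first daughter the higher. The genes of this pair, picked as an example, therefore did not all favour 1 sister.

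ERCC RNAs enter each lysate from a common dilution, so their ratios between sisters show the scatter of RNA that does not differ biologically. The 4 ERCC RNAs within a factor of 2 of the median TPM of Yap1 reached 1.5 in 77.1% to 81.25% of pairs, against 83.3% for Yap1 itself. For Tead4 the range was 66.7% to 81.25% against 81.25%, for Vgll4 20.8% to 77.1% against 75%, and for Tead3 75% to 87.5% against 85.4%. Lats2, with 83.3%, and Amotl2, with 85.4%, also lay inside the range of their ERCC RNAs. Wwtr1 (54.2% against 66.7% to 83.3%), Tead1 (64.6% against 66.7% to 83.3%), Lats1 (72.9% against 77.1% to 87.5%) and Amotl1 (43.75% against 47.9% to 83.3%) lay below theirs. Yap1 was the only member above its range, and its median ratio of 2.75 was below the 3.65 to 41.7 of its ERCC RNAs. ERCC RNAs are shorter than most transcripts and carry no cap, so equal TPM need not mean equal capture. Those set beside Yap1 were read in 77 to 85 cells against 95 for the gene, and those of Lats1 in 74 to 85 against 96. For Tead1 it was 77 to 95 against 96. For the other members the number of cells of the gene lay within the range of its ERCC RNAs. The technical part of a member's ratio was not tested.

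**Figure D4:**
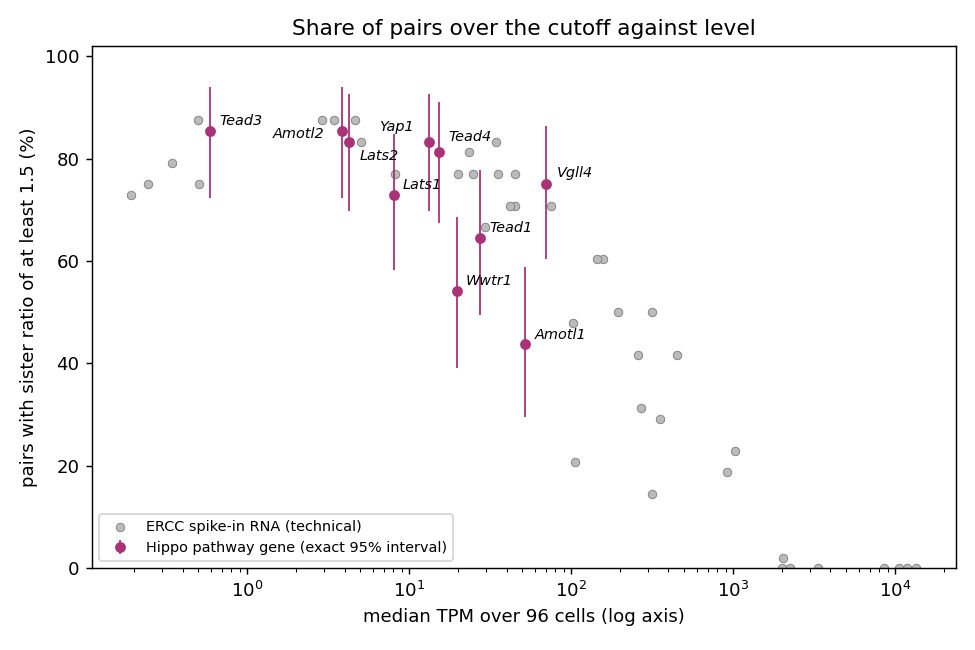
Share of 48 pairs whose sister ratio was at least 1.5 (y axis, percent) against median TPM over 96 cells (x axis, log scale). Purple points are the Hippo pathway genes with exact 95% intervals and grey points are ERCC RNAs with a median above 0; the share of the ERCC RNAs falls at high levels, and Wwtr1, Tead1, Lats1 and Amotl1 lie below the ERCC RNAs of like level while Yap1, at 83.3%, lies close to them.

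How alike sisters were, compared with cells of other pairs, was described by the intraclass correlation over 48 pairs on log2(CPM + 1), where 1 means identical sisters and values near 0 mean sisters no more alike than other cells. It was 0.45 for Wwtr1 and 0.40 for Amotl2, the only members over 0.3, as were 17.8% of all genes. Without each set of 8 cells in turn, Wwtr1 had 0.37 to 0.61 and Amotl2 0.33 to 0.46. After centring on the sets Wwtr1 had 0.303 and Amotl2 0.22, which is no longer over 0.3. For Yap1 the value was -0.14, lower than in most genes (percentile 5.66 of all genes), but 0.008 on ranks of CPM. On log2(CPM + 1), Lats1 (-0.09) and Tead3 (-0.06) were also below 0, as were 27.0% of all genes. Lats2 had 0.19, Amotl1 0.15, Vgll4 0.10, Tead4 0.09 and Tead1 0.07. The median of the 10 was 0.10, against 0.11 over all genes. Wwtr1 and Yap1 thus stood far apart in this measure, and the difference between them was not tested. The part of technical scatter in these values was not tested.

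Co-variation of the members was weak. Over the 96 cells, which share pairs, sets and library depth, Spearman's rho of the 45 gene pairs ran from -0.21 to 0.27 with a median of 0.06, and 31 were above 0, as were 52.7% of all gene pairs. The median was 0.17 on ERCC-normalized counts and 0.008 after centring on the sets. Over differences within the 48 sister pairs it ran from -0.30 to 0.37 with a median of -0.01, and 20 were above 0, as were 50.7% of all gene pairs. Yap1 had its highest value among members with Wwtr1, 0.26 over cells and 0.20 within pairs. In the 23 pairs in which both reached 1.5, they were higher in the same sister in 14 (60.9%, 38.5 to 80.3), against 51.9% over all gene pairs. The highest values within pairs were those of Tead1 with Lats1 (0.37) and with Tead4 (0.34), and the lowest was that of Tead3 with Tead4 (-0.30). Of the 9 other members, 5 had a rho with Yap1 above 0 over cells and 1 within pairs, where 47.0% and 49.7% of all genes had. For single genes against Yap1, the central 95% of all genes lay between -0.21 and 0.19, and weak correlations in counts this scattered are no finding for any gene pair.

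**Figure D5:**
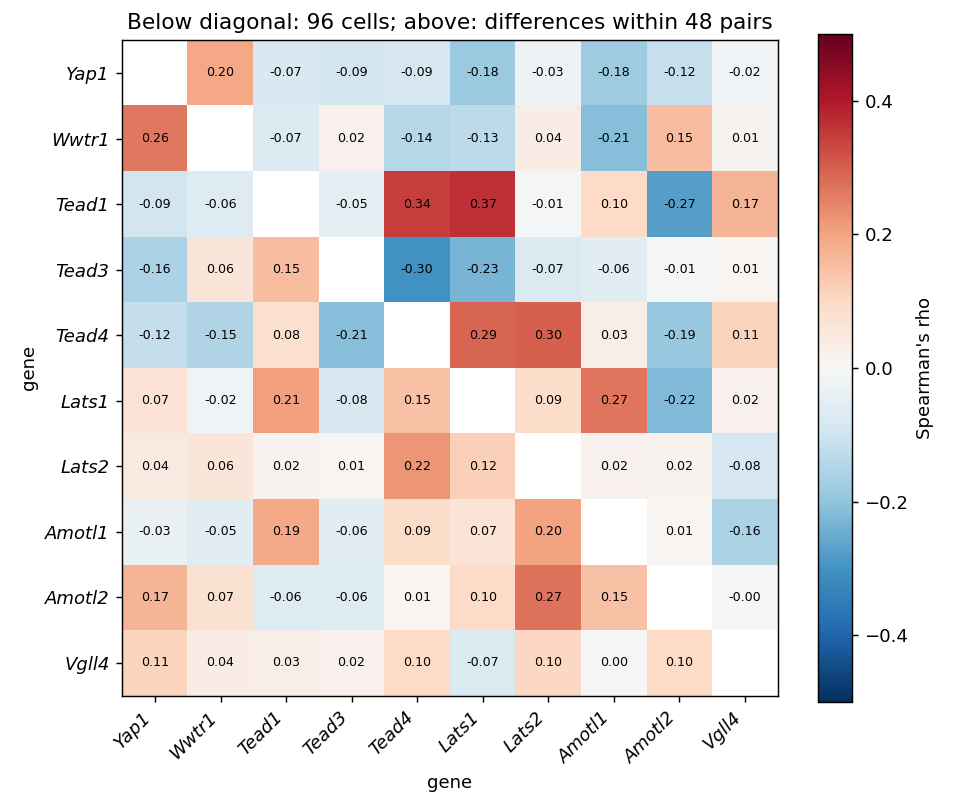
Spearman's rho between the Hippo pathway genes, on log2(CPM + 1), with genes on both axes and the colour scale from -0.5 to 0.5. Squares below the diagonal use 96 cells and squares above it use differences within 48 sister pairs; the values stay between -0.30 and 0.37, with the highest for Tead1 and Lats1 within pairs.

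Of 25 other Hippo pathway genes, 21 passed the filter. The upstream kinases Stk3 and Stk4 (the MST kinases) had median levels of 12.9 and 17.0 TPM, and their partner Sav1 had 1.63 TPM. The LATS cofactor Mob1a had 46.1 TPM, the junctional adaptor Nf2 48.0 TPM and the LIM protein Ajuba, an inhibitor of LATS, 114 TPM. Sfn and Ywhaz, 14-3-3 proteins that can hold phosphorylated YAP in the cytoplasm, were far higher, with 1592 and 693 TPM. Vgll1 and Vgll2 were at 0 in all 96 cells, and 0 of 96 cells, taken as a limit of 3 counts, permits a share of up to 3.125% of cells with a count, which is no limit on cells that express the gene. Fat4 and Dchs1, the cadherin pair upstream of the pathway, had counts in 3 cells each. Among those 21 genes, 668 of 1008 gene and pair values reached the 1.5-fold ratio (66.3%), and Ywhaz did so in 9 pairs only. With Yap1, 13 of the 21 had a rho above 0 over cells (all genes 47.0%) and 11 within pairs (all genes 49.7%). The highest was that of the kinase Taok1, 0.28 over cells and 0.39 within pairs.

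YAP target genes give a view of pathway output. Of 20 targets, 17 passed the filter. Ankrd1 and Ccdc80 had no count in any cell, and Foxf2 in 1 cell. The secreted matrix protein gene Ccn1 (formerly Cyr61) was read in every cell, from 0.19 to 2458 TPM with a median of 99.7 TPM. Its relative Ccn2 was read in 37 cells and reached 414 TPM. The receptor Axl had a median level of 19.9 TPM, and Igfbp3, which encodes a binder of insulin-like growth factors, 193 TPM. The intraclass correlation of the 17 had a median of 0.30, against 0.10 for the Hippo genes above and 0.11 over all genes. Over 0.3 were 9 of them, as were 17.8% of all genes, among them Nt5e (0.52), Crim1 (0.49), Axl (0.47) and Ccn1 (0.32). After centring on the sets, which lowers the value by its construction, Nt5e had 0.47, Crim1 0.39, Axl 0.32 and Ccn1 0.23. The others of the 9 then lay between 0.09 (Igfbp3) and 0.23 (Ccn2).

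Correlations of the targets with Yap1 lay close to 0 on both sides. Of the 17 targets, 8 had a rho with Yap1 above 0 over cells, between -0.19 and 0.11, and 8 within pairs, where 47.0% and 49.7% of all genes had. With Wwtr1, 13 of the 17 were above 0 over cells (all genes 48.4%), with a median of 0.08, and 5 within pairs (all genes 49.3%). The mean of the 17 targets had a rho of 0.07 with Yap1 and 0.14 with Wwtr1 over cells, and of -0.09 and -0.24 within pairs. Over cells it had 0.40 with Lats2, 0.32 with Amotl2, 0.26 with Amotl1 and 0.21 with Tead1. Within pairs these were 0.15, 0.14, -0.02 and 0.08. Over cells and within pairs, the target mean had 0.16 and 0.25 with Lats1, and 0.15 and 0.20 with Vgll4. With Tead3 it had 0.18 and -0.13, and with Tead4 -0.03 and 0.06. The same mean had a rho of 0.25 with genes detected and 0.24 with gene counts per ERCC count.

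The members were also set beside measures of cell state. The values given here were picked from all members and measures, and no share over all genes was computed for them. The mean level of 10 mitosis genes had a rho of -0.19 with Yap1 and -0.19 with Wwtr1 over cells, and 0.09 and -0.15 within pairs. The Yap1 value was -0.06 on ERCC-normalized counts and -0.05 when centred on the set of 8 cells. Lats2 had -0.26 with the mitosis genes over cells and -0.44 within pairs, and Tead4 had -0.22 and -0.40 with the S-phase genes. Amotl2 had 0.31 with Krt6a and Krt16, keratins of wounded epithelium, over cells and -0.003 within pairs. Amotl1 had 0.26 and 0.30 with the basal genes Trp63, Krt5 and Krt14, and Wwtr1 had 0.10 and 0.32 with the mitochondrial share of counts.

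The study follows the histone variant H3.3 and names Yap1 among the genes preferred by the daughter with more H3.3 transcript. The sister direction of the H3.3 genes H3f3a and H3f3b was therefore set beside that of Yap1. The paper pooled 15 pairs asymmetric in either H3.3 gene, whereas each gene is taken alone here. H3f3a reached 1.5 in 15 pairs, and in the 13 of these in which Yap1 did too, the same sister was higher in 7 (53.8%, 25.1 to 80.8). Over all genes 57.8% of such values were in the same sister. H3f3b also reached 1.5 in 15 pairs, and Yap1 was higher in the same sister in 8 of 12 (66.7%, 34.9 to 90.1), against 57.3% over all genes. These values are on ERCC-normalized counts. On CPM, Yap1 was higher in the same sister as H3f3a in 5 of 10 pairs and as H3f3b in 7 of 13. The shares over all genes on CPM were 50.3% for H3f3a and 50.1% for H3f3b. The rho of Yap1 with the mean of both genes was -0.03 over cells and 0.18 within pairs. Lats2, singled out after its values were seen, was higher in the same sister as H3f3a in 11 of 11 pairs on ERCC-normalized counts and in 7 of 9 on CPM. Against H3f3b it was 7 of 11 and 2 of 10. Of 8961 genes with 10 or more such pairs on ERCC-normalized counts, 25 were higher in the same sister as H3f3a in all of them. On CPM it was 1 of 2710 genes.

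The genes whose levels were most like Yap1 over the 96 cells were Psme4, which encodes a proteasome activator (rho 0.37), Tnks2 (0.36), Gm5406 (0.36), Cfap300 (0.32) and Psmf1, a proteasome inhibitor gene (0.32). Within pairs the values were 0.09, 0.40, 0.16, 0.30 and 0.23. Tnks2 encodes a tankyrase. Cfap300 lies on the same strand of chromosome 9 as Yap1, with its near end 17076 bases from it, and had a count in 32 cells. For 8 other members the nearest gene had a rho between 0.37 and 0.42. They were Ubl3 for Wwtr1 (0.37), Toe1 for Tead1 (0.40), Ces2g for Tead3 (0.37) and Clcf1 for Tead4 (0.42). For Lats1 it was Hnrnpl (0.39), for Lats2 the cell cycle inhibitor gene Cdkn1a (0.41), for Amotl1 the kinase gene Limk2 (0.42) and for Vgll4 Ppm1b (0.38). These are the highest of 14462 genes each and are given as a description.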

How the data were processed

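Single HBC daughters were processed by G&T-seq with oligo-dT beads, without molecular identifiers or strand. Per the submitters' processing notes and the study's methods, reads were trimmed (Trimmomatic 0.39), aligned (STAR 2.7.11a) to GRCm38 with ERCC sequences and quantified (StringTie 2.2.1). The authors deposited a matrix of raw counts (92 ERCC RNAs and 55487 genes) and a TPM table per cell. Counts were scaled by median-of-ratios size factors from the 22 ERCC RNAs read in all cells (0.387 to 1.93). CPM was taken over gene totals. TPM gave the levels of genes and an alternative sister ratio, and duplicated gene IDs were summed. PCR reads are not independent molecules. Intervals are for numbers of cells or pairs taken as separate, and do not cover differences between animals or cultures.

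Members and gene lists were chosen with earlier results of these data known. Genes named in the text are the 10 members, the listed genes, the 5 genes nearest to Yap1 and the 1 nearest to each other member by Spearman's rho (that of Amotl2 is not reported here), and, of the pairs, the 3 with the widest Yap1 ratio and the widest for each other member. Pair 4, the sister direction against the H3.3 genes and the naming of Lats2 there were chosen after their values were seen. All labels give 1 condition with no animal or culture, so no test was run. Cells were picked by hand, and no doublet caller was run. The scripts were checked on simulated data. Python 3.11.15, numpy 2.4.6, pandas 2.3.3, scipy 1.17.1 and matplotlib 3.10.9 were used. Alternatives are given in the closing section.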

Additional observations from a re-analysis of the deposited data

How the results depend on the processing

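Of the summary results, 52 values under other settings stayed within the limits set for them and 3 moved. The limit was 14.4 points for the share at the 1.5-fold ratio and 0.19 for the median intraclass correlation. For each of these results, 12 of the values only left out a set of 8 cells. Those values share most cells with the main value and could move little. The number of the 17 targets with a rho above 0 with Yap1 was 8, 5 after centring on the sets of 8 cells, 12 on ERCC-normalized counts and 10 on TPM, and that of the 21 other Hippo genes was 13, and 17 on ERCC-normalized counts. The rho of Yap1 with the mitosis genes went from -0.19 to -0.064 on ERCC-normalized counts and to -0.052 after centring. The cause was not tested. The share of values of the 10 genes that reached the cutoff was 60.2% at a cutoff of 2, against 53.2% over all genes. Under the other scalings, pseudocounts and pair filters the share at 1.5 was 65.8% to 74.4%, against 50.96% to 65.2% over all genes. Leaving out each set of 8 cells in turn, chosen after seeing the data, gave 71.4% to 73.9%, and a median intraclass correlation of 0.08 to 0.15. Centring, which lowers the value by its construction with 4 pairs in a set, moved the intraclass correlation of Yap1 to -0.39, that of Tead4 to -0.11 and that of Lats1 to -0.28, and ERCC-normalized counts moved that of Amotl1 from 0.15 to 0.39. On ranks of CPM the intraclass correlation was 0.008 for Yap1, 0.29 for Amotl1, -0.05 for Tead1 and -0.02 for Vgll4. Without a set of 8 cells it ran from 0.07 (without set 7) to 0.31 (without set 3) for Amotl1, from -0.12 to -0.03 (without set 10) for Lats1, from -0.10 to 0.13 for Tead1, from -0.07 to 0.15 for Tead4, from -0.13 to 0.01 for Tead3, from 0.13 (without set 12) to 0.28 for Lats2 and from 0.02 (without set 5) to 0.16 for Vgll4, and the sign turned without set 4 for Tead1, set 10 for Tead4 and set 1 for Tead3. With a cutoff of 2, Yap1 reached it in 62.5% of pairs, Tead1 in 45.8% and Amotl1 in 18.75%, against 53.2% over all genes. With a pseudocount of 100, Tead3 had 66.7%, Lats2 68.75% and Amotl2 68.75%, against 50.96% over all genes. On TPM Amotl2 had 62.5%, against 54.5% over all genes. The sister direction of Lats2 against H3f3b went from 63.6% to 20.0% on CPM, a setting added after seeing the data. Over all genes this share went from 57.3% to 50.1%. Tead3, Lats2 and Amotl2 had a count in 65, 84 and 83 of the 96 cells, and the part of capture in the zeros of the others was not tested. No paired analysis was possible because all cells form 1 group, so no groups share replicate numbers. The sister pairs enter every ratio above.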
